A study of Homo sapiens with 32 samples.

Results

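Amino acids cross the plasma membrane through families of solute carriers (SLC), and 10 genes of these families were followed across the RNAseq of HEK293T and U2OS cells. They were taken by symbol from the 60107 genes of the count table: *SLC7A5*, *SLC7A11*, *SLC3A2*, *SLC6A9*, *SLC1A4*, *SLC1A5*, *SLC7A1*, *SLC7A3*, *SLC38A1* and *SLC38A2*. Each matched 1 Ensembl identifier, and all 10 passed the filter on low counts in every comparison. The list was selected from results of these same data, so its overall direction is a description and not independent evidence.

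As background, *SLC7A5* exchanges large neutral amino acids such as leucine, *SLC7A11* takes up cystine in exchange for glutamate and so feeds glutathione synthesis, and both need *SLC3A2*, the heavy chain that brings them to the membrane. *SLC1A4*, *SLC1A5*, *SLC38A1* and *SLC38A2* carry small neutral amino acids and glutamine, *SLC7A1* and *SLC7A3* carry arginine and lysine, and *SLC6A9* carries glycine. When amino acids run short or the endoplasmic reticulum is stressed, the kinase GCN2 or PERK phosphorylates eIF2alpha, the transcription factor ATF4 is translated, and several of these carriers are induced together with enzymes of serine and asparagine synthesis. *SLC7A11* is also a target of the oxidative stress factor NRF2 and is repressed by p53.

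HEK293T is a line from human embryonic kidney, and U2OS is an osteosarcoma line. U2OS cells received camptothecin (CPT), a poison of topoisomerase TOP1, at 400 nM (libraries 26 to 29), or the solvent DMSO (libraries 30 to 33). HEK293T cells received the ATM inhibitor KU-55933 at 9 µM (libraries 18 to 21, whose deposited label reads ATM KO while the study's methods give only the inhibitor in this line) or DMSO (libraries 22 to 25). Both exposures lasted 24 h and were followed by 48 h of recovery. The other 2 experiments were HEK293T cells with CPT at 100 nM or DMSO, and untreated U2OS cells. Those HEK293T cells also had 24 h of exposure and 48 h of recovery, and those U2OS cells were grown for 72 h. The untreated U2OS cells were wild type (WT) or had *ATM* knocked out (KO) with CRISPR/Cas9 in picked clones. A KO line thus stands for the clone as well as for the lost gene. Each group held 4 independent repeats, and libraries are named here by the number in their titles.

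The labels of libraries 1 to 17 go against their content. Over genes with a mean of at least 10 CPM (counts per 1000000 counts on genes), only 2 of these 16 libraries lay nearer in correlation to the DMSO libraries of the line on their label, and 14 lay nearer to the other line. All 8 of libraries 1 to 8 lay nearer to U2OS, and all 8 of libraries 10 to 17 nearer to HEK293T. The 4 U2OS markers (*CAV1*, *ANXA1*, *CD44* and *S100A6*) summed to 466 to 943 CPM in libraries 1 to 8 and to 20.98 to 82.0 CPM in libraries 10 to 17, beside 408 to 1193 CPM in libraries 26 to 33 and 26.8 to 56.5 CPM in libraries 18 to 25. Of the 4 HEK293T markers, *NEFM* was at 126 CPM or more in libraries 10 to 17 and at 1.41 CPM or less in libraries 1 to 8. *LIN28B* stood apart in the same way, while *PAX2* separated the lines poorly. *NEFL* went the other way in libraries 18 to 33, at 129 to 180 CPM in U2OS and 57.4 to 83.5 CPM in HEK293T. Its ranges overlapped between libraries 1 to 8 and libraries 10 to 17. These libraries were therefore set against each other in sets chosen from their expression profiles, libraries 10, 12, 14 and 16 (labelled U2OS ATM KO) against 11, 13 and 15 (labelled U2OS WT) and 17 (labelled HEK293T DMSO), and libraries 2, 4, 6 and 8 (labelled HEK293T CPT) against 3, 5 and 7 (labelled HEK293T DMSO) and 1 (labelled U2OS WT). They are called HEK293T CPT regrouped and U2OS ATM KO regrouped. The columns were also set against the control abundances that the study lists beside its proteins, as the median absolute difference of log10 mean CPM after centring. Of 1820 sets of 4 among these 16 libraries, libraries 1, 3, 5 and 7 lay nearest for U2OS ATM KO (0.00127 over 246 genes, and 0.174 for the 4 libraries labelled U2OS WT). Libraries 11, 13, 15 and 17 lay nearest for HEK293T CPT (0.0137 over 816 genes, and 0.12 for the 4 of these libraries labelled HEK293T DMSO). The next nearest set for HEK293T CPT, libraries 10, 11, 13 and 15, lay close, at 0.0187. For U2OS ATM KO the next was libraries 1, 4, 5 and 7, at 0.0154, so the HEK293T match is the less clear of the 2. These matches bear on the control sets only. The deposited labels give other groups, and the sets were chosen from the profiles of the same libraries that are compared. The values and calls in these sets are therefore given as a description with no p-value, since they are not independent of that choice. Genes are said to be called there, as elsewhere, when the fit across all genes gave an adjusted p under 0.05.

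Library depth, as counts assigned to genes, lay between 1232674 and 6362433 (median 3359463.5). The limit of detection was set at 3 counts, which is 0.472 to 2.43 CPM by library and covers counting error only. The reads come from the 3′ end of transcripts, so CPM does not grow with transcript length and levels of different genes can be set side by side. The immune and endothelial markers *PTPRC*, *CD3E*, *PECAM1* and *LYZ* and the epithelial *EPCAM* summed to at most 72.7 CPM in any block of libraries, nearly all of it *EPCAM*. Bulk counts cannot tell fewer transcripts per cell from fewer cells that express a gene.

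The start of each gene gives the setting for these counts. RefSeq (GRCh38.p14) lists 14 starts for 8 of the members, and the 250 bases before each were searched on both strands for TGATGNAA, the core of the C/EBP-ATF response element through which ATF4 acts, and TGACNNNGC, the core of the antioxidant response element that NRF2 binds. A match was present in 4 of the 14 stretches, for *SLC3A2*, *SLC1A5* and *SLC7A1*. Over 35116 promoter stretches of the same length, 3.14% held the first motif and 10.9% the second, and a match is a description and not a site of binding. The whole stretch is shown for *SLC7A5* (chr16:87869508-87869757, minus strand), the one member called in U2OS ATM KO regrouped, and for *SLC7A1* (chr13:29595689-29595938, minus strand), the one member that rose with CPT in U2OS cells; neither overlaps an exon of GENCODE 29. Capitals mark the match to the antioxidant motif, 85 to 77 bases before the start of *SLC7A1*.
SLC7A5: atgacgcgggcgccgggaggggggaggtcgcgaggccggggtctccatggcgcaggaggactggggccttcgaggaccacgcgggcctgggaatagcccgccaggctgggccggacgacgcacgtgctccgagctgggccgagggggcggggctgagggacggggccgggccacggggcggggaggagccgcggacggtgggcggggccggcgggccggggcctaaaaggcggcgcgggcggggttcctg
SLC7A1: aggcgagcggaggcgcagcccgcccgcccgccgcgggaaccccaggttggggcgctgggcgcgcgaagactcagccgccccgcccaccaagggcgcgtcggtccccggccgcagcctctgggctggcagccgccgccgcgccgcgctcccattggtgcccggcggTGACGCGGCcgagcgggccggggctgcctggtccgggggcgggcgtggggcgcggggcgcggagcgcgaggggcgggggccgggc

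The other matches are shown in windows of 30 bases, with the match in capitals, since these stretches overlap exons. That of *SLC3A2* (chr11:62881652-62881681, plus strand) held the antioxidant motif 37 to 29 bases before one of its 3 starts. *SLC1A5* held the C/EBP-ATF core 97 to 90 bases before one start (chr19:46784893-46784922, minus strand), and the antioxidant motif, read on the opposite strand, 111 to 103 bases before another (chr19:46787385-46787414, minus strand).
SLC3A2: cgagggtgggTGACTCAGCgtcctccttcc
SLC1A5 C/EBP-ATF: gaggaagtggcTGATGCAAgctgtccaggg
SLC1A5 antioxidant: cctggatcttGCGAGGTCAgctcccgctcc

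In U2OS cells, the cystine carrier and the glycine carrier fell most with CPT, and one arginine carrier rose. Of the 10 transporters, 5 fell (*SLC7A11*, *SLC6A9*, *SLC7A3*, *SLC38A2* and *SLC1A4*), 1 rose (*SLC7A1*) and 4 did not pass the test. Over all 19080 genes tested, 16.6% rose and 15.3% fell. With the study's further cutoff of an absolute log2 fold change over 1, 3 members fell and none rose, where 5.5% of all genes fell and 7.97% rose. The median log2 fold change was -0.29 over the members and 0.01 over all genes. Scaling by library totals alone, without TMM factors (a trimmed-mean correction of library size), moves the median of all genes by -0.17 in this comparison, so plain CPM values of CPT libraries read lower than the fitted differences.

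*SLC7A11* (chr4:138164097-138242349, GENCODE 29, GRCh38) had 37.7, 34.1, 32.2 and 27.8 CPM in the CPT libraries 26 to 29 and 152, 151, 146 and 104 CPM in the DMSO libraries 30 to 33. The groups did not overlap, and the lowest DMSO library stood well above the highest CPT library. Its log2 fold change was -1.89 ± 0.13 (SE, n = 4 per group; edgeR, adjusted p = 8.59e-13), from 138 ± 23.2 to 32.9 ± 4.13 CPM (SD). *SLC6A9* (chr1:43991500-44031467) had 7.06, 2.48, 1.39 and 4.99 CPM with CPT and 12.97, 15.5, 11.4 and 16.1 CPM with DMSO. It fell by 1.61 ± 0.28 on the log2 scale (edgeR, adjusted p = 3.10e-05), at 4 to 24 counts per CPT library, so its size is less firm than that of *SLC7A11*.

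*SLC3A2* (chr11:62856102-62888875), the heavy chain that *SLC7A11* needs, did not follow it. It had 107, 97.1, 111 and 98.9 CPM with CPT and 122, 121, 114 and 121 CPM with DMSO. These CPM values do not overlap, but after TMM scaling the log2 fold change was -0.04 ± 0.11 (edgeR, adjusted p = 0.845). Another of its light chains, *SLC7A5* (chr16:87830023-87869488), had 77.1, 81.3, 92.1 and 113 CPM with CPT and 115, 154, 100 and 98.3 CPM with DMSO, and the groups overlapped. Its log2 fold change was -0.19 ± 0.13 (edgeR, adjusted p = 0.301), and -0.36 with an adjusted p of 0.0409 when scaled by library totals alone.

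The arginine and lysine carriers moved apart. *SLC7A1* (chr13:29509410-29595688) had 130, 124, 128 and 139 CPM with CPT and 107, 110, 87.9 and 82.9 CPM with DMSO, every CPT library above every DMSO library. It rose by 0.60 ± 0.11 on the log2 scale (edgeR, adjusted p = 7.45e-05). *SLC7A3* (chrX:70925582-70931125) was near the limit of detection in this line, at 2 to 6 counts per CPT library and 9 to 17 per DMSO library, and its log2 fold change of -1.28 ± 0.39 (edgeR, adjusted p = 0.0118) was not called by DESeq2 (adjusted p = 0.0549).

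Among the carriers of small neutral amino acids, *SLC38A2* (chr12:46358189-46372867) was the most abundant member in U2OS cells. It had 405, 353, 314 and 313 CPM with CPT and 583, 532, 492 and 472 CPM with DMSO, with no overlap, and fell by 0.41 ± 0.11 on the log2 scale (edgeR, adjusted p = 0.00413). *SLC1A4* (chr2:64988477-65023865) had 41.8, 47.5, 46.4 and 38.1 CPM with CPT and 61.4, 62.6, 63.6 and 68.3 CPM with DMSO. Its log2 fold change was -0.39 ± 0.13 (edgeR, adjusted p = 0.0167); the call was lost without library 29 (adjusted p = 0.0736) and in a fit of all 32 libraries (adjusted p = 0.119). *SLC1A5* (chr19:46774883-46788594), at 60.5 to 85.3 CPM with CPT and 77.8 to 90.4 CPM with DMSO, had a log2 fold change of 0.01 ± 0.13 (edgeR, adjusted p = 0.972). *SLC38A1* (chr12:46183063-46270017) had 61.2 to 87.6 CPM with CPT and 64.6 to 89.8 CPM with DMSO, and a log2 fold change of 0.17 ± 0.13 (edgeR, adjusted p = 0.334). The groups overlapped for both.

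**Figure D1:**
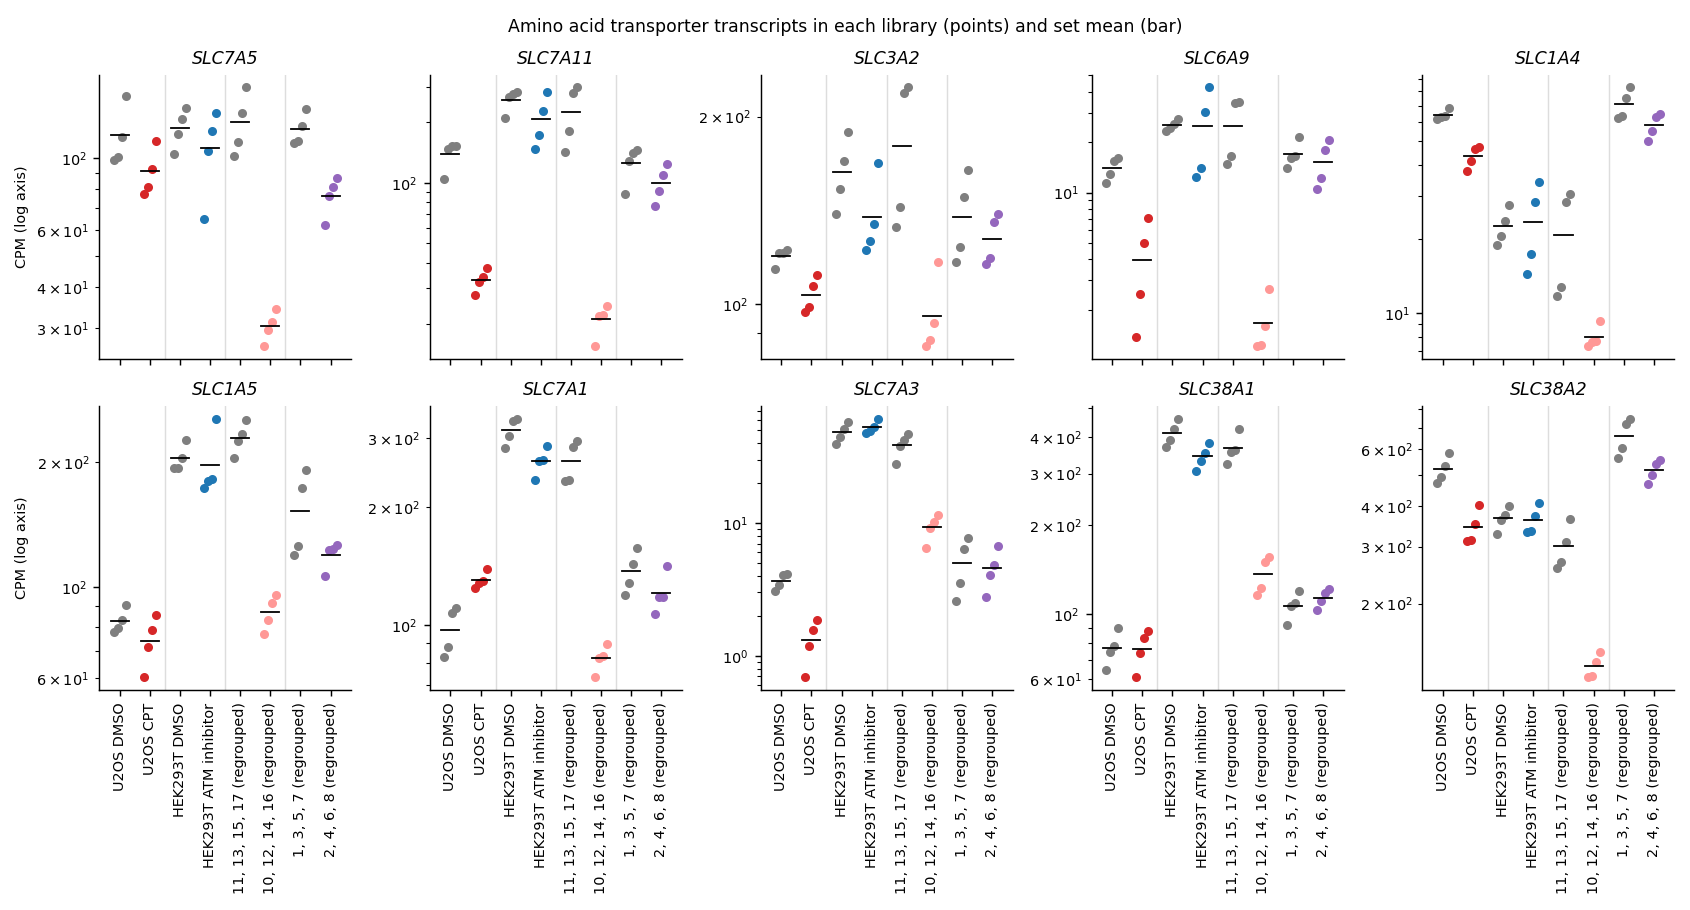
CPM of each transporter on a log axis, 1 panel per gene, with a point for each library and a bar at the mean of its set of 4. Gray points are DMSO, WT or regrouped control libraries; in U2OS cells with CPT *SLC7A11* lies at 27.8 to 37.7 CPM against 104 to 152 CPM with DMSO, and in libraries 10, 12, 14 and 16 all 10 genes lie below their controls.

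The rest of the carriers in U2OS cells moved in both directions with CPT. Of 49 other amino acid transporters, 34 were tested, 11 rose and 7 fell, with a median log2 fold change of 0.38. The neuronal neutral amino acid carrier *SLC6A17* rose most, from 6.57 ± 2.56 to 25.8 ± 2.57 CPM (log2 fold change 2.10 ± 0.21; edgeR, adjusted p = 2.34e-09). *SLC7A6*, another partner of the heavy chain, rose by 0.68 ± 0.14, and the mitochondrial glycine carrier *SLC25A38* by 0.67 ± 0.19. Among those that fell were the glutamate carrier *SLC1A3* (log2 fold change -0.92 ± 0.18), the mitochondrial aspartate/glutamate carrier *SLC25A13* (-0.72 ± 0.14) and *SLC36A4* (-0.54 ± 0.16).

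Genes of the amino acid response did not move as a block in U2OS cells. Of 28 listed genes 27 were tested, 3 rose, 7 fell and 17 did not pass the test, with a median log2 fold change of -0.03. *ATF3*, a stress-induced transcription factor, rose by 2.38 ± 0.18 (edgeR, adjusted p = 2.65e-12), *SESN2*, a sestrin, by 1.48 ± 0.12 and *PPP1R15A*, which brings a phosphatase to eIF2alpha, by 0.79 ± 0.17. The largest falls were those of *DDIT4*, an inhibitor of mTORC1 (-1.37 ± 0.27), *PHGDH*, the first enzyme of serine synthesis (-1.16 ± 0.13), and *ASNS*, asparagine synthetase (-0.66 ± 0.14). The p53 targets *CDKN1A*, *MDM2* and *GDF15* all rose, *CDKN1A* from 95.9 ± 6.30 to 401 ± 21.8 CPM (log2 fold change 2.24 ± 0.11; edgeR, adjusted p = 1.87e-16). *ATF3* and *SESN2* are known targets of p53 too, but the part of p53 in their rises was not tested.

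Among 10 genes of glutathione synthesis and NRF2, the list that *SLC7A11* also belongs to, 2 rose and 4 fell. The fall of *SLC7A11* was the largest, followed by *NQO1*, a quinone reductase (log2 fold change -0.69 ± 0.14), *GPX4*, the lipid peroxide reductase (-0.52 ± 0.14), and *GCLC* (-0.41 ± 0.14). *GCLM*, a subunit of the rate-limiting enzyme of glutathione synthesis, rose by 0.37 ± 0.13 and *TXNRD1*, thioredoxin reductase, by 0.33 ± 0.12, all on the log2 scale. Of 18 tested genes of amino acid sensing by mTORC1, 5 rose and none fell. The largest rises were those of *SESN2*, which the amino acid response list also holds, and *SESN1* (1.44 ± 0.16), followed by *LAMTOR3* (0.51 ± 0.19), *RRAGD* (0.45 ± 0.14) and *RRAGC* (0.42 ± 0.16). All 4 U2OS markers rose too, summing to 1055 to 1193 CPM with CPT and 408 to 454 CPM with DMSO, and the epithelial marker *EPCAM* fell (-0.49 ± 0.14); their part in these results was not tested.

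With the ATM inhibitor, no transporter was called in HEK293T cells. The log2 fold changes ran from -0.25 (*SLC7A11*) to 0.20 (*SLC7A3*), with standard errors of 0.10 to 0.23, and adjusted p ran from 0.901 to 0.995 (edgeR; 0 of the 10 had an unadjusted p under 0.05). DESeq2 called 0 of them as well. Over all 18413 genes tested, 0% rose and 0.00543% fell (1 gene), and 0% passed the further cutoff in either direction, while 1017 genes had an unadjusted p under 0.05. Fits of the same size called members in the other comparisons. Their spreads and differences were not those of these libraries, so they do not show how small a difference could be found here.

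*SLC7A11* had 226, 281, 147 and 172 CPM in the inhibitor libraries 18 to 21 and 281, 265, 275 and 209 CPM in the DMSO libraries 22 to 25. *SLC6A9* had 42.3, 30.4, 14.1 and 12.3 CPM with the inhibitor and 24.2, 27.4, 25.8 and 23.4 CPM with DMSO. *SLC1A4* had 34.2, 28.3, 14.4 and 17.5 CPM with the inhibitor and 23.6, 27.4, 20.5 and 18.96 CPM with DMSO. In each of these 3 genes libraries 18 and 19 were high and libraries 20 and 21 low, so that the inhibitor libraries spanned the DMSO libraries or overlapped them. *SLC7A5* had 137, 105, 64.8 and 121 CPM with the inhibitor and 142, 132, 118 and 103 CPM with DMSO, library 20 being the lowest. *SLC7A1* had 235 to 286 CPM with the inhibitor and 283 to 336 CPM with DMSO, and *SLC38A1* 306 to 382 CPM against 371 to 461 CPM. The groups overlapped for all 10 members. None of the 32 other transporters, 28 amino acid response genes, 18 mTORC1 sensing genes and 10 glutathione and NRF2 genes tested was called. Nor were the 3 p53 targets or *ATM* itself, which an inhibitor of the protein need not alter (62.2 ± 9.07 CPM against 67.7 ± 11.6 CPM; edgeR, adjusted p = 0.977).

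In HEK293T CPT regrouped, all 10 transporters were lower in libraries 10, 12, 14 and 16 than in libraries 11, 13, 15 and 17, and no pair of groups overlapped. How many of all genes separate in this way was not counted, here or in the other comparisons. All 10 were called, 9 of them past the cutoff, and the median log2 fold change was -1.58, against 0.04 over all genes. Over the 19464 genes tested, 17.3% were called lower and 17.6% higher, and 4.45% and 9.52% past the cutoff. The summed level of the 10 was 599 ± 28.6 CPM against 1776 ± 297 CPM (SD, n = 4).

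*SLC6A9* had 1.22, 1.23, 1.60 and 2.67 CPM in libraries 10, 12, 14 and 16 and 16.5, 34.9, 34.2 and 14.8 CPM in libraries 11, 13, 15 and 17. Its log2 difference was -3.79 ± 0.34, at 4 to 17 counts in the first set, near the limit of detection. *SLC7A11* had 21.7, 22.2, 24.6 and 15.6 CPM against 142, 280, 297 and 181 CPM, a log2 difference of -3.47 ± 0.21 at a level well above that limit. These are the same 2 genes that fell most with CPT in U2OS cells.

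The heavy chain was lower here too, though by the least of the 10. *SLC3A2* had 85.7, 87.7, 93.1 and 117 CPM against 143, 223, 218 and 133 CPM, a log2 difference of -0.93 ± 0.16. *SLC7A5* had 34.3, 31.2, 29.4 and 26.4 CPM against 112, 164, 138 and 102 CPM, a log2 difference of -2.13 ± 0.16. In the first set *SLC3A2* stood well above *SLC7A5* and *SLC7A11*, while in the second *SLC7A11* and *SLC3A2* overlapped.

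Both arginine and lysine carriers were lower. *SLC7A1* had 83.0, 89.5, 73.6 and 82.2 CPM against 233, 284, 296 and 235 CPM, a log2 difference of -1.70 ± 0.12. *SLC7A3*, well detected in this line, had 9.19, 10.2, 11.5 and 6.44 CPM against 38.2, 46.5, 42.4 and 27.9 CPM, a log2 difference of -2.13 ± 0.20. The direction of *SLC7A1* is thus opposite to that in U2OS cells with CPT, and no library of either comparison departs from it. CPT was given at different doses in the 2 lines and the difference was not tested.

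The small neutral amino acid carriers lay close together in their differences. *SLC1A5* had 76.9 to 95.5 CPM against 205 to 253 CPM (log2 difference -1.44 ± 0.12), and *SLC38A1* had 116 to 157 CPM against 323 to 426 CPM (-1.45 ± 0.12). *SLC38A2* had 119 to 141 CPM against 258 to 364 CPM (-1.26 ± 0.13). *SLC1A4*, the least abundant of them in this line, had 7.65, 7.72, 7.36 and 9.27 CPM against 12.8, 30.6, 28.2 and 11.7 CPM (-1.39 ± 0.27), with the second set split into a high and a low pair. In U2OS cells with CPT, *SLC1A5* and *SLC38A1* had not passed the test.

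**Figure D2:**
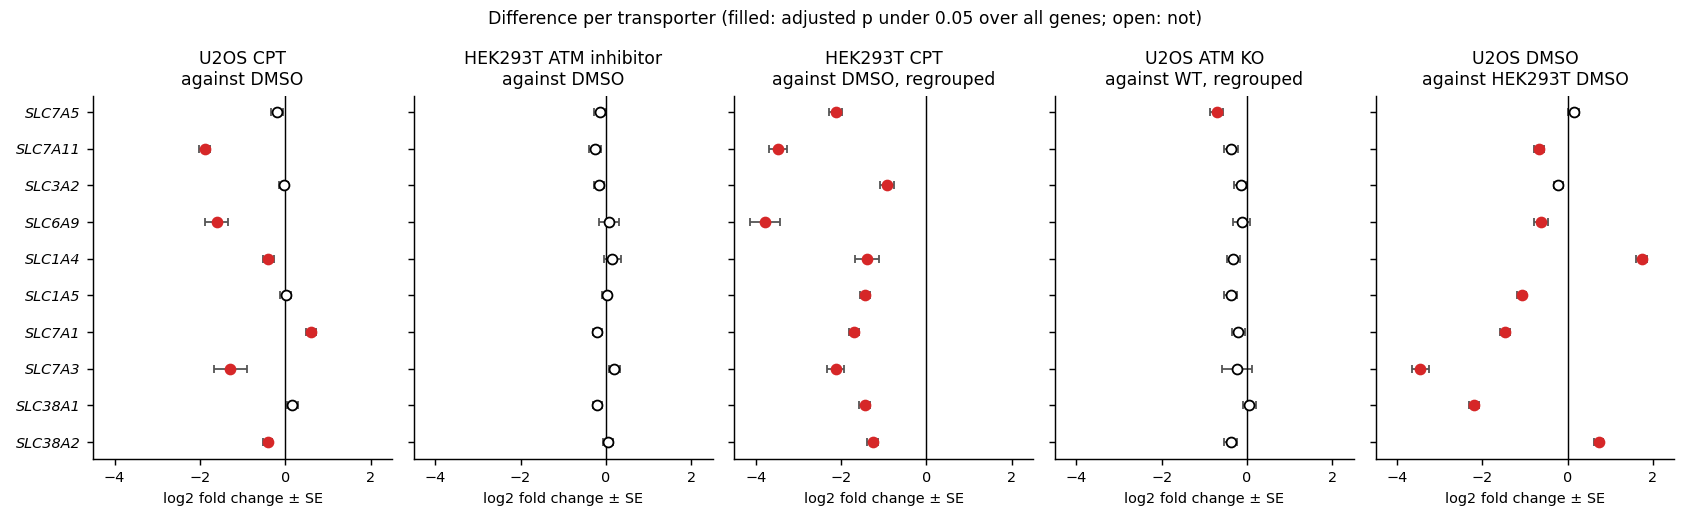
Log2 fold change of each transporter with its standard error in the 5 comparisons (n = 4 per group), filled where the adjusted p over all genes was under 0.05. All 10 lie left of 0 in HEK293T CPT regrouped, none is filled with the ATM inhibitor, and *SLC7A1* lies right of 0 (0.60) with CPT in U2OS cells.

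Unlike in U2OS cells, the amino acid response genes were lower together in this pair of sets. Of 27 tested, 23 were called lower, 19 of them past the cutoff, and 1 higher, with a median log2 difference of -1.61. *ASNS* had 29.9 ± 4.44 CPM against 265 ± 95.6 CPM (log2 difference -3.18 ± 0.21), *CHAC1*, an enzyme that breaks down glutathione, 5.19 ± 2.49 CPM against 34.4 ± 17.4 CPM (-2.76 ± 0.32), and *DDIT4* 27.5 ± 5.04 CPM against 185 ± 49.3 CPM (-2.74 ± 0.17). The 1 higher gene was *ATF5*, a stress-induced transcription factor (0.67 ± 0.24). The difference in response between the lines was not tested, since doses differ and these sets are regrouped.

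Of the other amino acid transporters, 33 were tested, 3 were higher and 11 lower, with a median log2 difference of -0.43. The lower ones were led by *SLC6A15*, a carrier of branched-chain amino acids and proline (-1.75 ± 0.17), *SLC43A1*, a large neutral amino acid carrier (-1.61 ± 0.20), and *SLC7A2*, a relative of *SLC7A1* and *SLC7A3* (-0.82 ± 0.21). *SLC7A8*, which shares the heavy chain and much of the substrate range of *SLC7A5*, was higher (1.497 ± 0.175, 38.6 ± 6.16 CPM against 13.3 ± 3.04 CPM), as were *SLC38A7* (0.56 ± 0.16) and *SLC6A17*, at 2.40 against 0.95 CPM near the limit of detection. Among glutathione and NRF2 genes *SLC7A11* was lower by far the most, *GSS*, glutathione synthetase, was lower (-0.41 ± 0.13), and *HMOX1*, heme oxygenase, was higher (2.18 ± 0.17) with *TXNRD1* (0.38 ± 0.12). Of 18 mTORC1 sensing genes, 1 was higher and 4 lower, none past the cutoff, with *NPRL3* (-0.52 ± 0.19), *SLC38A9* (-0.48 ± 0.17), *SESN2* (-0.45 ± 0.17) and *LAMTOR2* (-0.42 ± 0.13) lower and *RRAGA* higher (0.34 ± 0.11).

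The p53 targets were higher in these libraries as in U2OS cells with CPT, 3 of 3, *CDKN1A* at 156 ± 49.7 CPM against 34.6 ± 15.9 CPM (2.17 ± 0.22). Of the 4 U2OS markers, the 3 tested were called higher as well, the 4 summing to 66.0 to 82.0 CPM against 20.98 to 29.3 CPM, while *CD44*, 1 of the 3, stayed at 0.309 to 1.22 CPM (1 to 4 counts) and *S100A6* at 0 to 0.612 CPM (0 to 2 counts) in libraries 10, 12, 14 and 16, near or under the limit of detection. Of the 4 HEK293T markers 1 was called lower, *NEFM* (157 ± 39.3 CPM against 264 ± 63.6 CPM), and 1 higher, *PAX2* (6.68 ± 0.75 CPM against 3.97 ± 0.62 CPM). The part of the markers of either line was not tested. When the groups were taken from the deposited labels (HEK293T CPT against the 8 libraries labelled HEK293T DMSO), 0 members were called. The share of all genes called in that fit was not counted.

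**Figure D3:**
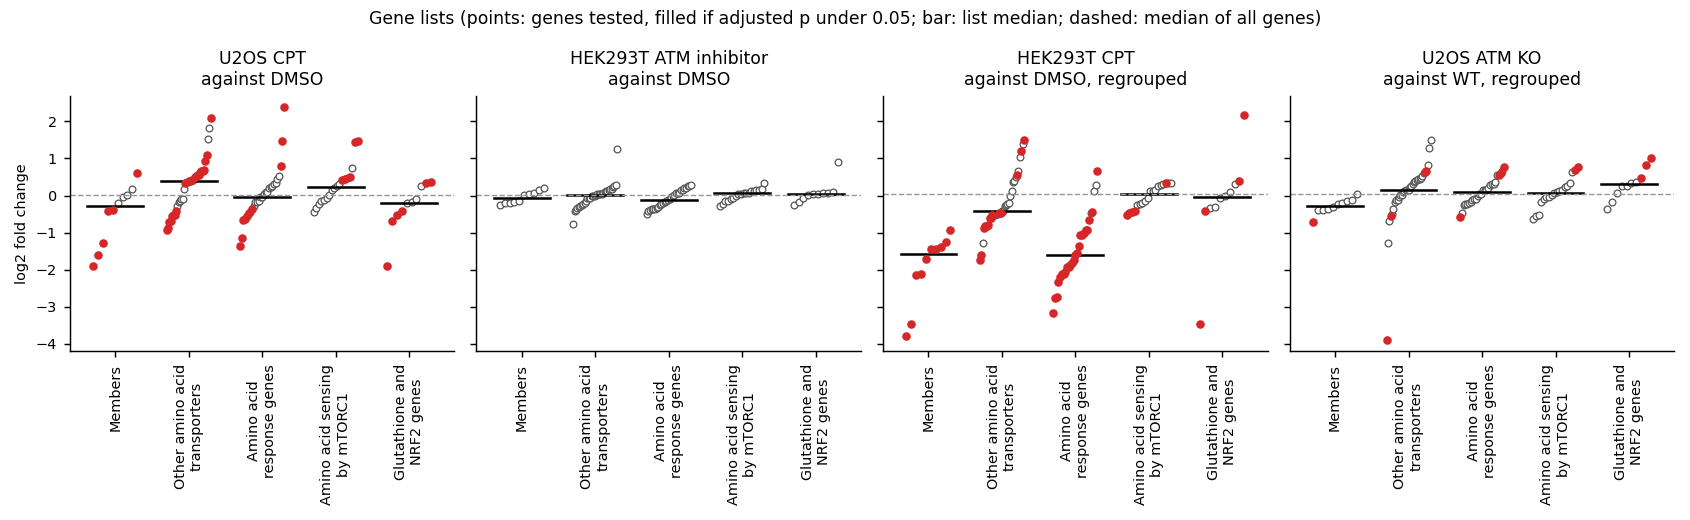
Log2 fold change of every tested gene of 5 lists in 4 comparisons, filled where the adjusted p was under 0.05, with a bar at the list median and a dashed line at the median of all genes. The members and the amino acid response genes lie low together in HEK293T CPT regrouped (medians -1.58 and -1.61), and not in U2OS cells with CPT (-0.29 and -0.03).

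In U2OS ATM KO regrouped, 1 of the 10 transporters was called, *SLC7A5*. It had 76.3, 62.1, 86.4 and 81.3 CPM in libraries 2, 4, 6 and 8 and 126, 112, 141 and 111 CPM in libraries 1, 3, 5 and 7, without overlap, a log2 difference of -0.71 ± 0.15. Over the 18591 genes tested, 6.54% were called lower and 6.43% higher, and 2.43% and 2.8% past the cutoff, which no member passed. A count of 1 in 10 is near this background. The log2 differences of the other 9 ran from -0.39 to 0.05, and the median of the 10 was -0.28 against 0.04 over all genes.

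*SLC38A2* was the other member whose groups did not overlap, with 556, 499, 542 and 470 CPM against 747, 565, 718 and 604 CPM (log2 difference -0.39 ± 0.16, not called). *SLC7A11* had 123, 90.9, 110 and 76.6 CPM against 140, 145, 128 and 88.3 CPM (-0.37 ± 0.17, not called). *SLC1A5* had 106, 123, 124 and 126 CPM against 126, 192, 174 and 119 CPM (-0.38 ± 0.16, not called). Library 7 was the lowest control for *SLC7A11* and *SLC1A5*, and without it these 2 and *SLC38A2* were called as well, which makes 4. That was the highest count among the fits that left out 1 library, which gave 1 to 4. The share of all genes called without library 7 was not counted, so the 4 cannot be set against a background. *SLC3A2* (116 to 140 CPM against 117 to 164 CPM), *SLC6A9* (10.6 to 20.5 against 14.1 to 21.4 CPM), *SLC1A4* (50.04 to 64.9 against 62.3 to 82.9 CPM), *SLC7A1* (106 to 141 against 119 to 157 CPM), *SLC7A3* (2.75 to 6.74 against 2.60 to 7.67 CPM) and *SLC38A1* (103 to 121 against 91.7 to 120 CPM) overlapped.

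*ATM* itself was at 50.9 ± 11.7 CPM against 60.6 ± 6.65 CPM (log2 difference -0.31 ± 0.17, not called). Counts from the 3′ end show the loss of a gene only where the edit lowers its transcript, so they do not check the KO. Of the 3 p53 targets 1 was called higher, *GDF15*, at 64.9 to 92.9 CPM against 20.5 to 35.9 CPM. *CDKN1A* and *MDM2* were not called. Of 33 other amino acid transporters tested, 2 were higher, the taurine carrier *SLC6A6* (0.67 ± 0.17) and *SLC7A2* (0.64 ± 0.20), and 2 lower, the mitochondrial serine carrier *SFXN1* (-0.56 ± 0.15) and *SLC7A7*, which at 0.04 against 1.51 CPM was at the limit of detection. Of 26 amino acid response genes 3 were higher, *SESN2* (0.78 ± 0.18), *NUPR1* (0.61 ± 0.20) and *ASNS* (0.56 ± 0.18), and 1 lower, *CEBPG* (-0.58 ± 0.17). Of 10 glutathione and NRF2 genes 3 were higher, *HMOX1* (1.01 ± 0.20), *TXNRD1* (0.81 ± 0.17) and *NQO1* (0.48 ± 0.16), and of 18 mTORC1 sensing genes 2, *SESN2* and *SESN1* (0.69 ± 0.22). Libraries 1 and 2, the shallowest of the 32, lie in these sets, and without both the count of members called stayed 1. Of the 4 U2OS markers 3 were called higher, while *S100A6* was not called (160 ± 20.5 CPM against 173 ± 18.7 CPM). The 4 summed to 672 to 943 CPM against 466 to 645 CPM. Of the 4 HEK293T markers 1 was called higher, *PAX2* (7.17 ± 1.32 CPM against 2.58 ± 0.86 CPM), and none lower. The part of these markers was not tested. By deposited label (U2OS ATM KO against U2OS WT) 9 members were called lower, in groups of which only library 1 lay nearer to U2OS. The share of all genes called in that fit was not counted, so the 9 cannot be set against a background.

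The DMSO libraries of the 2 lines differed in the transcript levels of several carriers. In DMSO, U2OS cells had more *SLC1A4* and *SLC38A2* than HEK293T cells, less *SLC7A3*, *SLC38A1*, *SLC7A1*, *SLC1A5*, *SLC7A11* and *SLC6A9*, and *SLC7A5* and *SLC3A2* did not pass the test. Over the 19739 genes tested, 32% were higher and 30.1% lower in U2OS, and 21.8% and 18.1% past the cutoff, so that 8 calls among 10 members stand against a background in which most genes differ. These are the DMSO libraries of 2 experiments, so line and experiment cannot be told apart. Scaling by library totals alone moved the median of all genes by -0.22 here.

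*SLC7A3* differed most, with 3.40, 3.10, 4.10 and 4.09 CPM in U2OS libraries 30 to 33 and 57.4, 50.8, 44.8 and 39.7 CPM in HEK293T libraries 22 to 25 (log2 difference -3.46 ± 0.19; edgeR, adjusted p = 4.86e-17). *SLC38A1* had 64.6 to 89.8 CPM in U2OS and 371 to 461 CPM in HEK293T (-2.20 ± 0.12; edgeR, adjusted p = 7.64e-18), and *SLC7A1* 82.9 to 110 CPM and 283 to 336 CPM (-1.47 ± 0.11; edgeR, adjusted p = 1.04e-13). The related carriers *SLC1A4* and *SLC1A5* differed in opposite directions, *SLC1A4* with 61.4 to 68.3 CPM in U2OS and 18.96 to 27.4 CPM in HEK293T (1.73 ± 0.14; edgeR, adjusted p = 4.37e-13) and *SLC1A5* with 77.8 to 90.4 and 194 to 227 CPM (-1.08 ± 0.11; edgeR, adjusted p = 2.66e-10). *SLC38A2* had 472 to 583 CPM in U2OS and 328 to 401 CPM in HEK293T (0.72 ± 0.10; edgeR, adjusted p = 1.78e-07), which left it the most abundant of the 10 in U2OS, while *SLC38A1* had the highest mean in HEK293T with DMSO, in a range that overlapped that of *SLC38A2*. *SLC7A11* had 104 to 152 and 209 to 281 CPM (-0.68 ± 0.12; edgeR, adjusted p = 7.36e-06), and *SLC6A9* 11.4 to 16.1 and 23.4 to 27.4 CPM (-0.62 ± 0.16; edgeR, adjusted p = 0.00145).

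*SLC7A5* overlapped between the lines, at 98.3 to 154 and 103 to 142 CPM (0.14 ± 0.13; edgeR, adjusted p = 0.346). *SLC3A2* had 114 to 122 and 139 to 189 CPM (-0.22 ± 0.11; edgeR, adjusted p = 0.0816), and was called without library 23 (adjusted p = 0.0358) or when scaled by library totals alone (adjusted p = 0.00109). Of the 27 amino acid response genes tested, 23 were lower in U2OS and 3 higher. *STC2*, a secreted glycoprotein, was at 386 ± 35.8 CPM in HEK293T and 0.335 ± 0.487 CPM in U2OS, under the limit of detection, *PSAT1*, an enzyme of serine synthesis, at 348 ± 61.2 and 27.9 ± 7.90 CPM, and *CTH*, which makes cysteine from cystathionine, at 62.7 ± 11.1 and 5.90 ± 1.48 CPM, while *NUPR1* was higher in U2OS (2.48 ± 0.22) with *ATF5* (1.26 ± 0.22) and *VLDLR*, a lipoprotein receptor (0.55 ± 0.15). Of 33 other transporters, 14 were higher, led by *SLC38A7* (1.66 ± 0.17), *SLC43A2* (1.13 ± 0.18) and *SLC38A6* (1.01 ± 0.16), and 11 lower, led by *SLC16A10* (-2.50 ± 0.14), *SLC6A15* (-2.19 ± 0.15) and *SLC43A1* (-1.41 ± 0.16).

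The transporters also varied among libraries of one set. The pairs of libraries set against each other here were picked after their values were seen, so the counts are a description. In the regrouped control set of HEK293T-like cells, libraries 13 and 15 lay above libraries 11 and 17 in 10 of 10 members, and in 15.3% of the 9573 genes with a mean of at least 10 CPM. Libraries 18 and 19 lay above libraries 20 and 21 in 7 of 10 members, and in 12.8% of those genes. The DMSO libraries 22 to 25 spread less, *SLC6A9* having an SD of 1.78 CPM about 25.2 CPM, against 10.9 CPM about 25.1 CPM in libraries 11, 13, 15 and 17 and 14.3 CPM about 24.8 CPM in libraries 18 to 21. This spread stands in the standard errors given above.

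**Figure D4:**
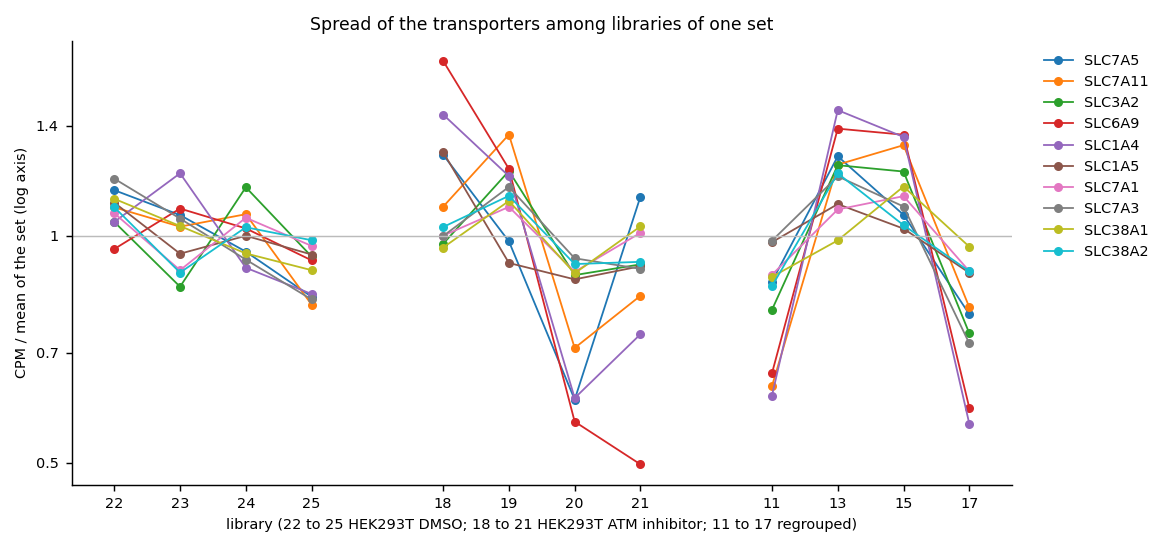
CPM of each transporter divided by its mean in the set, on a log axis, in the 12 libraries of 3 HEK293T or HEK293T-like sets; lines join the 4 libraries of one set and carry no order. Libraries 13 and 15 lie above 11 and 17 for all 10 genes, and 18 and 19 above 20 and 21 for 7 of the 10 (not *SLC7A5*, *SLC7A1* and *SLC38A1*), while libraries 22 to 25 spread less.

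Likeness between genes was taken as Pearson's r of log2(CPM + 0.5) over the 32 libraries, after the control mean of each experiment was subtracted, among 9573 genes with a mean of at least 10 CPM. It is a description, since the libraries share experiments, depth and, above all, the large difference between libraries 10, 12, 14 and 16 and their controls. The 5 genes most like *SLC7A5* were *DDR2*, a collagen receptor (0.94), *MTHFD2*, a mitochondrial folate enzyme of the amino acid response list (0.92), its relative *MTHFD1L* (0.91), *SLC1A5* (0.91) and *AGA*, a lysosomal amidase (0.91). For *SLC7A11* they were *SLC38A2* (0.94), *EXOSC8*, a subunit of the RNA exosome (0.94), *BCAT1*, a branched-chain aminotransferase (0.94), *SLC6A9* (0.93) and *OSGEPL1* (0.93). Members stood among the nearest genes of both, but the members were selected from these same data, so their likeness is no independent evidence. The spread of r over pairs of other genes was not counted. Between members r ran from 0.58 (*SLC7A1* with *SLC7A3*) to 0.94 (*SLC7A11* with *SLC38A2*). The related sequences *SLC7A5P1* and *SLC7A5P2* had too few counts to be tested in any comparison, so counts assigned to them bear little on *SLC7A5*.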

How the data were processed

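Transcripts of 32 libraries of HEK293T and U2OS cells were sequenced with the QuantSeq 3′ FWD method. The authors deposited raw counts per gene, made from reads with unique molecular identifiers by Lexogen's own UMI pipeline on the BlueBee platform. The genome build and annotation are not given in the sources used here. Gene names and coordinates are those of GENCODE 29 (56531 identifiers had a symbol), and promoter sequences those of RefSeq. The table held 60107 genes, and 92 spike-in and 5 summary rows (10.9 to 40.6% of a library's counts) were left out, with 0 columns left unused.

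Each comparison was fitted by edgeR (4.0.16, under R 4.3.3) on raw counts of its 8 libraries, with TMM factors and the quasi-likelihood test (n = 4 per group). A gene was kept if 2 or more libraries had over 1 count. Tests were two-sided, with Benjamini-Hochberg adjustment over all genes tested. The log2 fold change is given with an SE worked back from the test, as its absolute value divided by the square root of the quasi-likelihood F statistic. The alternatives were DESeq2 1.42.0, the likelihood ratio test of edgeR, RLE size factors, other filters on low counts, all 32 libraries in one fit, a cutoff on the fold change, each library left out in turn, the deposited labels as groups and other control libraries; library totals alone, and leaving out libraries 1 and 2, were added after the data were seen. The procedure was tested on simulated data. Control abundances listed by the study were used only to identify columns.

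The members and lists were chosen with earlier results of these data known. All 10 members are named. From each list, the 3 called genes with the largest change in each direction and a mean of at least 10 CPM are named, a rule extended to the mTORC1 sensing and glutathione lists after their values were seen. So were the further genes *SLC6A17* in HEK293T CPT regrouped, *SLC7A7*, *LAMTOR2*, *RRAGC*, *RRAGD*, *GCLC* and, between the lines, *ATF5*, which complete short counts. *SLC7A11* and *SLC7A3* had no entry among the promoter sequences.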

Additional observations from a re-analysis of the deposited data

Results flagged for a closer look

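Among 80 tests of 4 libraries each (10 members in 8 sets), Dixon's test marked 3 libraries as far from the others of their set, where chance marks about 1 in 20. *SLC1A5* stood at 255 CPM in library 18 of the ATM inhibitor, above 173 to 182 CPM in the other 3. *SLC7A11* stood at 104 CPM in DMSO library 33 of U2OS cells, below 146 to 152 CPM in the other 3, and this library remains above every CPT library. *SLC1A5* stood at 106 CPM in library 2, the shallowest of all, below 123 to 126 CPM in libraries 4, 6 and 8.

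*SLC7A1* moved in opposite directions with CPT in the 2 lines. Its log2 fold change was 0.60 in U2OS cells and -1.70 in HEK293T CPT regrouped, with every library of each comparison on its side. The difference was not tested, and the doses were 400 nM and 100 nM.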

How the results depend on the processing

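The 840 values of single members recomputed under the alternatives kept direction and side of the threshold in 804 cases, lost the call in 19, gained it in 15 and reversed in 2. With an absolute log2 fold change over 1 also required, the members called went from 6 to 3 with CPT in U2OS cells, from 1 to 0 in U2OS ATM KO regrouped and from 8 to 5 between the lines. With all 32 libraries in one fit, 2 were called in U2OS ATM KO regrouped, *SLC7A5* and *SLC38A2*. With the deposited labels as groups, 0 were called for HEK293T CPT and 9 for U2OS ATM KO. The share of all genes called was counted for the main fits only, so counts under the alternatives have no background beside them. With those labels *SLC1A4* (0.70) and *SLC38A2* (0.35) reversed in sign for HEK293T CPT, though neither was called. The cause was not tested. Leaving out one library in turn gave 5 to 6 members for CPT in U2OS cells, 0 to 0 for the ATM inhibitor, 10 to 10 for HEK293T CPT regrouped, 1 to 4 for U2OS ATM KO regrouped (4 without library 7) and 8 to 9 between the lines. No paired fit was made: the repeats were made in parallel, but each library carries a number of its own and the labels do not record which libraries share a repeat. Depth limits *SLC7A3* in U2OS cells and *SLC6A9* in libraries 10, 12, 14 and 16, which rest on few counts.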
